A study of Glycine max with 36 samples.

Results

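Nuclear factor Y (NF-Y) is a plant transcription factor built from 3 kinds of subunit, and the small RNAs that match its subunit genes were described here across soybean (Glycine max) tissues. The genes were chosen by their annotation alone: every gene whose best Arabidopsis match in the deposited table is described as a nuclear factor Y protein. This gave 81 of 52872 genes, counted on 1 transcript per gene (the lowest splice form in the table), with 21 of subunit A, 36 of subunit B and 24 of subunit C. Arabidopsis names such as NF-YA9 below are best matches and not soybean gene names, and several soybean genes carry the same name.

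The series holds 36 small RNA libraries, made from total RNA of greenhouse plants, and asks where small RNAs of chalcone synthase genes, which control seed color, occur. Seed coats were dissected by hand and staged by the fresh weight of the seed. Richland (I R t, yellow coat) and T157 (i R t, imperfect black coat) gave 3 immature seed coat libraries each at 5 to 6 mg and 1 each at 10 to 25 mg. Single seed coat libraries came from Williams 44 (i R T, black coat, 50 to 75 mg), from Clark 63 (i-i R T, 50 to 100 mg) and from a Clark isoline with mi G (i-i R t, minute hilum and defective coat, 50 to 100 mg). Williams (i-i R T, yellow coat with black hilum) gave the other seed and seedling tissues. These were 3 immature seed coats between 100 and 500 mg, 1 dry seed coat, 1 immature cotyledon without its axis, 1 dry cotyledon, 2 immature embryo axes of 200 to 400 mg seeds, 7 cotyledons of seedlings and 1 leaf of 10-day seedlings. Seedling cotyledons were 1 library a stage, from yellow and underground (stage 1) to fully green (stage 7). Clark plants, all i-i R T, gave 3 vegetative buds of plants of 5 to 7 weeks (five-foliate with Lf1, glabrous with P1 and standard, 1 each), 2 shoot tips of 1-month plants (five-foliate and glabrous) and 4 shoot tips of adult plants (five-foliate, glabrous and 2 standard).

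NF-Y binds the CCAAT box of promoters as a trimer. Subunits B and C each carry a histone-fold domain and pair with each other, and subunit A joins the pair and makes the sequence-specific contact with DNA. In plants each subunit comes from a gene family, the microRNA miR169 targets messengers of subunit A, and B and C subunits act in embryo development and, together with CONSTANS, in flowering. No miR169 or gene sequence was among the sources used here, so no sequence is shown and the identity of the small RNAs was not tested.

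A hit is a read placed on a transcript, counted on the sense or on the antisense strand, and levels are given as RPM, hits scaled to library reads. The libraries held 9.50 to 58.5 M reads (M for mega, median 20.4), at which 3 hits correspond to 0.0513 to 0.316 RPM. Gene hits numbered 5.74 to 85.3 M per library, apart from the stage 2 seedling cotyledon with 0.965 M. That library held 1 NF-Y hit in all, so its values of 0 are not read as a loss. The labels do not say whether libraries of a group came from separate plants, so p-values measure the spread between these libraries, which may be technical. Where a group mixes stages, seed weights, cultivars or isolines, the spread also holds those differences. The seedling cotyledons (stages) and the Williams coats (seed weights) are such groups.

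Small RNAs of NF-Y genes lay mostly on the antisense strand, in each of the 3 subunits. Subunit A had 1147 sense and 7905 antisense hits, an antisense share of 87.3%. Subunit B had 3476 sense and 43854 antisense hits (92.7%), and subunit C had 1957 sense and 5022 antisense hits (72.0%), against 68.2% over all genes. Single genes weigh on these sums: without Glyma.02G303800 (NF-YA9) the share of subunit A was 77.3%, and without Glyma.15G153900 (NF-YB5) that of subunit B was 67.4%. Counted by gene, 14 of 17 subunit A genes with 100 or more hits were mostly antisense, against 3 of 10 of subunit B, 9 of 13 of subunit C and 45.8% of all genes at that depth. These shares are descriptions without a test.

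Most genes of subunits A and C, but fewer of subunit B, had a small RNA at all. A hit was found in 20 of 21 genes of subunit A, 22 of 36 of subunit B and 24 of 24 of subunit C, and in 83.5% of all genes. The 15 genes without a hit were 14 of subunit B and Glyma.05G166100 (NF-YA7) of subunit A. Per kilobase of transcript the median gene had 160 hits in subunit A, 21.4 in subunit B and 155 in subunit C, against 89.3 over all genes. Those with 100 or more hits numbered 17, 10 and 13 in subunits A, B and C. The remaining genes with a hit had 25 to 30 hits in subunit A (3 genes, all matched to NF-YA7 and all sense), 1 to 72 in subunit B (12 genes) and 1 to 76 in subunit C (11 genes).

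The genes with most hits per kilobase were of subunit B and almost wholly antisense. Glyma.15G153900 (NF-YB5) had 36680 antisense and 0 sense hits, 44623 per kilobase, and was hit in all 36 libraries. Glyma.02G300200 (NF-YB3, in Arabidopsis an activator of flowering together with CONSTANS) had 6128 antisense and 345 sense hits, 7432 per kilobase. Next came the leading gene of subunit A, Glyma.02G303800 (NF-YA9, in Arabidopsis active in embryo development), with 4210 antisense and 64 sense hits, 2423 per kilobase. In subunit C the matched pair Glyma.04G196200 and Glyma.06G169600 (both NF-YC1) had 1279 and 1243 antisense hits. Sense hits prevailed instead on Glyma.07G268100 (NF-YB6, in Arabidopsis the embryo gene LEC1-LIKE) with 1251 of 1415 hits, and on Glyma.12G069100 (NF-YC10, in Arabidopsis a partner of the drought and heat factor DREB2A) with 1132 of 1135.

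**Figure D1:**
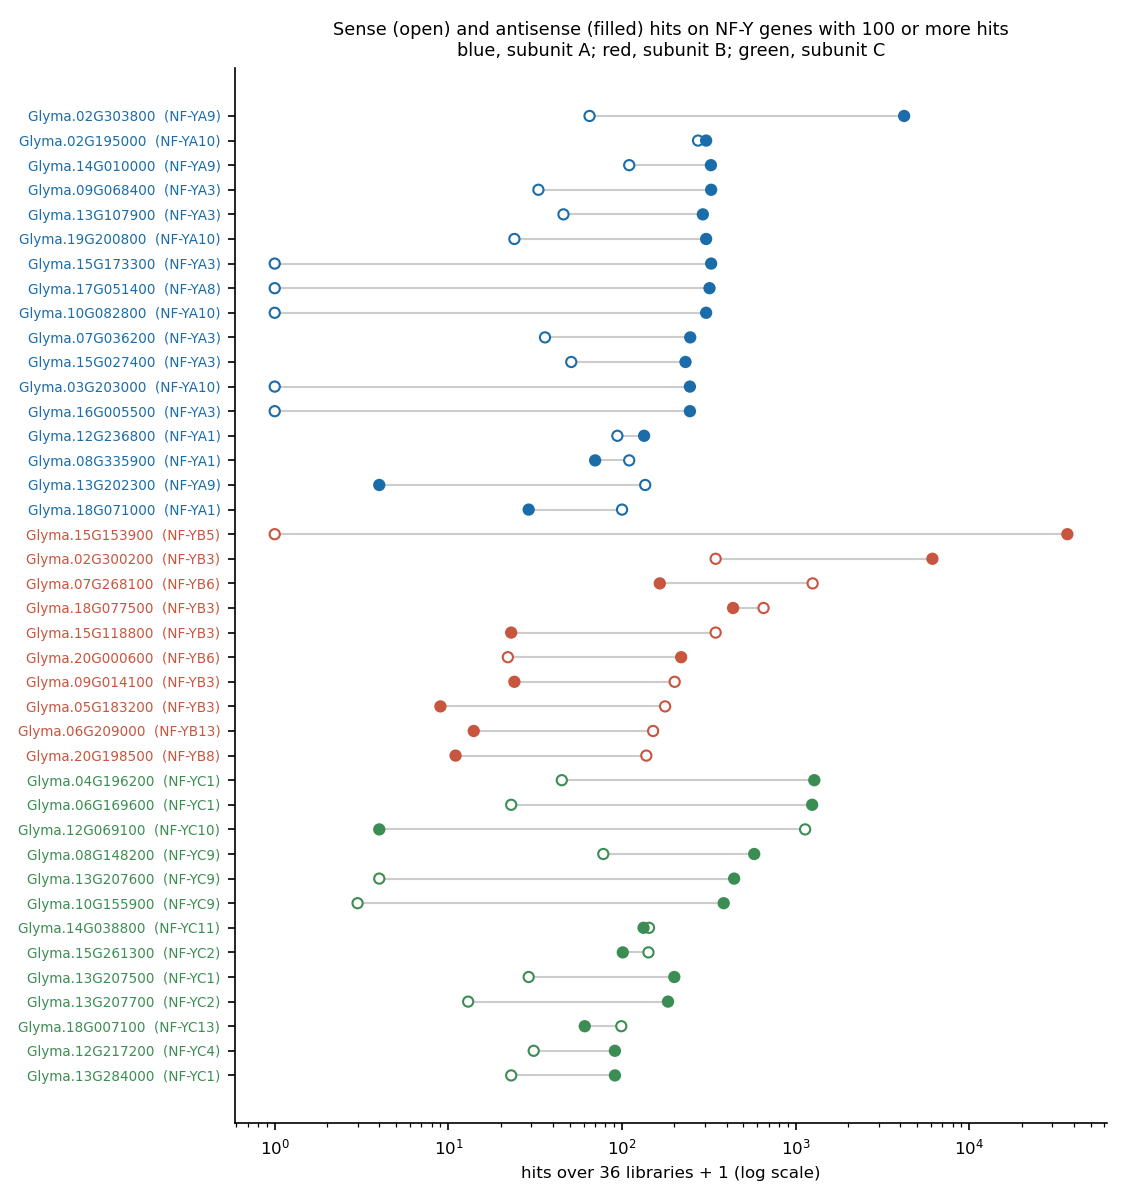
Sense hits (open points) and antisense hits (filled points) plus 1 on a log scale, summed over the 36 libraries, for the 40 NF-Y genes with 100 or more hits; names are blue for subunit A, red for subunit B and green for subunit C. Most rows of subunit A have the filled point to the right, near 300 hits, Glyma.02G303800 reaches 4210 and Glyma.15G153900 reaches 36680.

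Much of the antisense signal of subunit A was one count entered for several genes. Glyma.02G195000, Glyma.10G082800 and Glyma.19G200800 (all NF-YA10) had the same antisense count in every library, 304 in all. Glyma.03G203000 (NF-YA10) and Glyma.16G005500 (NF-YA3) shared another profile of 245 hits, and Glyma.07G036200 (NF-YA3) had 246. Another set was Glyma.09G068400 and Glyma.15G173300 (both NF-YA3) with 325 each and Glyma.17G051400 (NF-YA8) with 318. Of 15 antisense profiles of subunit A with 50 or more hits, 9 lay within 5% of that of another NF-Y gene and 0 within 5% of any gene outside the family. The 17 subunit A genes with antisense hits held 13 distinct profiles, so a count of subunit A genes is not a count of small RNA sources.

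Sharing also touched subunits B and C. The 345 sense hits of Glyma.02G300200 and of Glyma.15G118800 (both NF-YB3) were the same in every library, and the antisense profiles of Glyma.04G196200 and Glyma.06G169600 lay within 5% of each other. Glyma.12G217200 (NF-YC4) and Glyma.13G284000 (NF-YC1) shared 90 antisense hits. Some counts of all 3 subunits matched genes outside the family. The sense profile of Glyma.20G198500 (NF-YB8) lay within 5% of those of 58 other genes, and both strands of Glyma.07G268100 and the antisense strand of Glyma.18G077500 (NF-YB3) lay within 5% of a gene that is not NF-Y. So did both strands of Glyma.15G261300 (NF-YC2) and Glyma.18G007100 (NF-YC13), and the 50 sense hits of Glyma.15G027400 (NF-YA3). Values of these genes are therefore uncertain. Unique hits equalled total hits for all but 2 NF-Y genes, Glyma.20G198500 with 71 of 147 and Glyma.02G089650 (NF-YC1) with 58 of 70, so they did not separate the copies.

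The splice form used for counting mattered for few genes. Of the 4 listed forms of Glyma.02G303800, 3 had 4210 antisense hits and the other, model 9, had 3758. Model 4 of Glyma.13G207600 (NF-YC9) had 928 antisense hits, against 441 on the lowest splice form, and model 8 of Glyma.10G082800 had 188 sense and 346 antisense hits, against 0 and 304.

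Subunit A small RNAs were most abundant in the youngest seed coats and differed widely between tissues. Summed over the 21 genes and both strands, they were 34.2 ± 11.9 RPM in seed coats of 5 to 6 mg (SD, n = 6, lowest 15.5, median 37.2, highest 49.0). The 2 coats of 10 to 25 mg averaged 3.81 ± 0.376 RPM, the 3 of 50 to 100 mg 3.58 ± 0.949 RPM and the 3 of 100 to 500 mg 1.87 ± 0.668 RPM. The 5 to 6 mg coats lay above the other immature coats with no overlap, and cultivar differs between the weights except in Richland and T157. In Richland alone the sum was 39.8, 15.5 and 25.6 RPM at 5 to 6 mg and 3.54 RPM at 10 to 25 mg, and in T157 it was 40.5, 34.7 and 49.0 RPM at 5 to 6 mg and 4.07 RPM at 10 to 25 mg. Fewer cells of a type and less RNA per cell cannot be told apart in such bulk tissue.

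Beyond the immature seed coats, subunit A sums were 12.4 ± 8.16 RPM in seedling cotyledons (n = 7, lowest 0, median 10.2, highest 26.7; 14.5 ± 6.65 RPM without stage 2), 15.4 RPM in the immature cotyledon, 15.0 RPM in the dry cotyledon and 10.6 ± 1.65 RPM in embryo axes (n = 2). The dry seed coat held 11.4 RPM and the leaf 2.89 RPM. Shoot tips of 1-month plants held 15.3 ± 3.03 RPM (n = 2), above the 2.72 ± 1.89 RPM of vegetative buds (n = 3) and the 2.78 ± 0.991 RPM of adult shoot tips (n = 4), which did not differ beyond their spread. Seedling cotyledons overlapped both the axes and the 1-month tips, and the axes lay below the 1-month tips.

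The strand balance of subunit A also differed between tissues. The antisense share averaged 94.1 ± 3.39% in the 5 to 6 mg coats (n = 6) and 97.5 ± 1.84% in the 6 seedling cotyledon libraries with hits, against 34.7 ± 26.6% in the 50 to 100 mg coats (n = 3) and 51.1 ± 21.2% in adult shoot tips (n = 4). Antisense hits of the 20 genes other than Glyma.02G303800 summed to 35.9, 12.9 and 20.9 RPM in Richland and 35.6, 28.8 and 41.6 RPM in T157 at 5 to 6 mg, and to 0.622 and 1.73 RPM at 10 to 25 mg.

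Single genes of subunit A followed a few patterns. Of the 17 with 100 or more hits, 14 had their highest level in a 5 to 6 mg coat, all in T157. Many of these genes share antisense counts, and the share over all genes is not given here. The number is therefore not read as a trait of subunit A. Glyma.14G010000 (NF-YA9) is an example with a profile of its own: 3.34, 1.41 and 2.43 RPM in Richland and 3.90, 3.28 and 4.41 RPM in T157 at 5 to 6 mg, 0.479 RPM in Richland and 0.576 RPM in T157 at 10 to 25 mg, 0 to 0.413 RPM in the 6 immature coats above 25 mg, and 0.219 to 0.495 RPM in the 6 seedling cotyledon libraries with hits. The 13 subunit A genes deep enough to be tested in these coats all lay between 1.02 and 4.41 RPM there. Glyma.02G195000 also had 273 sense hits and kept 0.113 to 1.58 RPM in the larger coats.

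The 3 exceptions peaked elsewhere. Glyma.02G303800 was at 4.13, 0, 6.03, 11.01, 6.07, 22.7 and 12.4 RPM over cotyledon stages 1 to 7, at 12.8 RPM in the immature and 10.2 RPM in the dry cotyledon, and at 9.48 and 15.3 RPM in the five-foliate and glabrous 1-month tips. In Williams coats it had 0.603, 0.259 and 0.5259 RPM and in adult tips 0.599 to 2.76 RPM, below all those but the stage 2 value. Glyma.12G236800 (NF-YA1, in Arabidopsis active in embryo development) reached 2.62 and 2.01 RPM in the embryo axes, 1.10 RPM in the dry cotyledon and 0.667 RPM in the immature cotyledon, and at most 0.234 RPM in the other 32 libraries. Glyma.13G202300 (NF-YA9), with all but 3 hits on the sense strand, reached 1.17 and 1.09 RPM in the axes and 0.861 RPM in the dry coat.

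Glyma.08G335900 and Glyma.18G071000 (both NF-YA1) also carried mostly sense hits, 109 of 178 and 99 of 127. Their levels in 5 to 6 mg coats were 0.157 to 1.08 RPM and 0.167 to 1.01 RPM.

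Subunit B showed the opposite order along the seed coat. Its sum averaged 8.34 ± 1.68 RPM over the 6 coats of 5 to 6 mg (lowest 5.96, median 8.16, highest 11.005) and 42.9 ± 11.7 RPM over the 2 of 10 to 25 mg. It averaged 110 ± 15.8 RPM over the 3 coats of 50 to 100 mg and 116.8 ± 74.4 RPM over the 3 of 100 to 500 mg. The 5 to 6 mg coats lay below every larger coat. The antisense share was 25.4 ± 8.63% at 5 to 6 mg and 93.7 ± 2.35% at 10 to 25 mg. The embryo axes had 199 and 191 RPM (195 ± 5.56 RPM, n = 2) and the dry cotyledon 124 RPM, and the Williams coat of 100 to 200 mg, the highest library, had 202 RPM. Seedling cotyledons held 17.2 ± 7.96 RPM (n = 7, lowest 0.0501 at stage 2, median 19.6, highest 23.8; 20.1 ± 2.66 RPM without stage 2), vegetative buds 12.1 ± 6.30 RPM (n = 3), adult tips 20.3 ± 5.93 RPM (n = 4) and 1-month tips 47.4 ± 21.2 RPM (n = 2).

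Glyma.15G153900 (NF-YB5) made up most of that sum. It was at 189 and 179 RPM in the axes, at 189, 73.3 and 56.4 RPM in the Williams coats of 100 to 200, 400 to 500 and 200 to 300 mg, at 113.8 RPM in the dry cotyledon, 54.9 RPM in the dry coat and 46.8 RPM in the immature cotyledon. Seedling cotyledons had 17.8, 0.0501, 13.47, 11.01, 10.3, 14.3 and 17.8 RPM over stages 1 to 7, and the leaf had 4.19 RPM. In the 5 to 6 mg coats it was nearly absent, with 2, 3 and 1 hits in Richland (0.167, 0.235 and 0.0838 RPM) and 5, 2 and 3 hits in T157 (0.390, 0.168 and 0.232 RPM). At 10 to 25 mg it was at 31.6 RPM in Richland and 22.3 RPM in T157, above every 5 to 6 mg library of its line.

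Glyma.02G300200 (NF-YB3) rested on the same contrast between young and older coats. It was at 0, 0.0784 and 0.0838 RPM in Richland and 0, 0.588 and 0.310 RPM in T157 at 5 to 6 mg, and at 14.03 RPM in Richland and 10.0 RPM in T157 at 10 to 25 mg. The highest level of all was 81.3 RPM in the black-coated Williams 44, followed by 30.2 RPM in Clark 63 and 20.9 RPM in the mi isoline. Williams coats had 3.80 to 8.94 RPM, and the 1-month tips 13.6 and 6.51 RPM. Whether genotype, seed weight or the library sets the Williams 44 value cannot be told apart with 1 library.

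**Figure D2:**
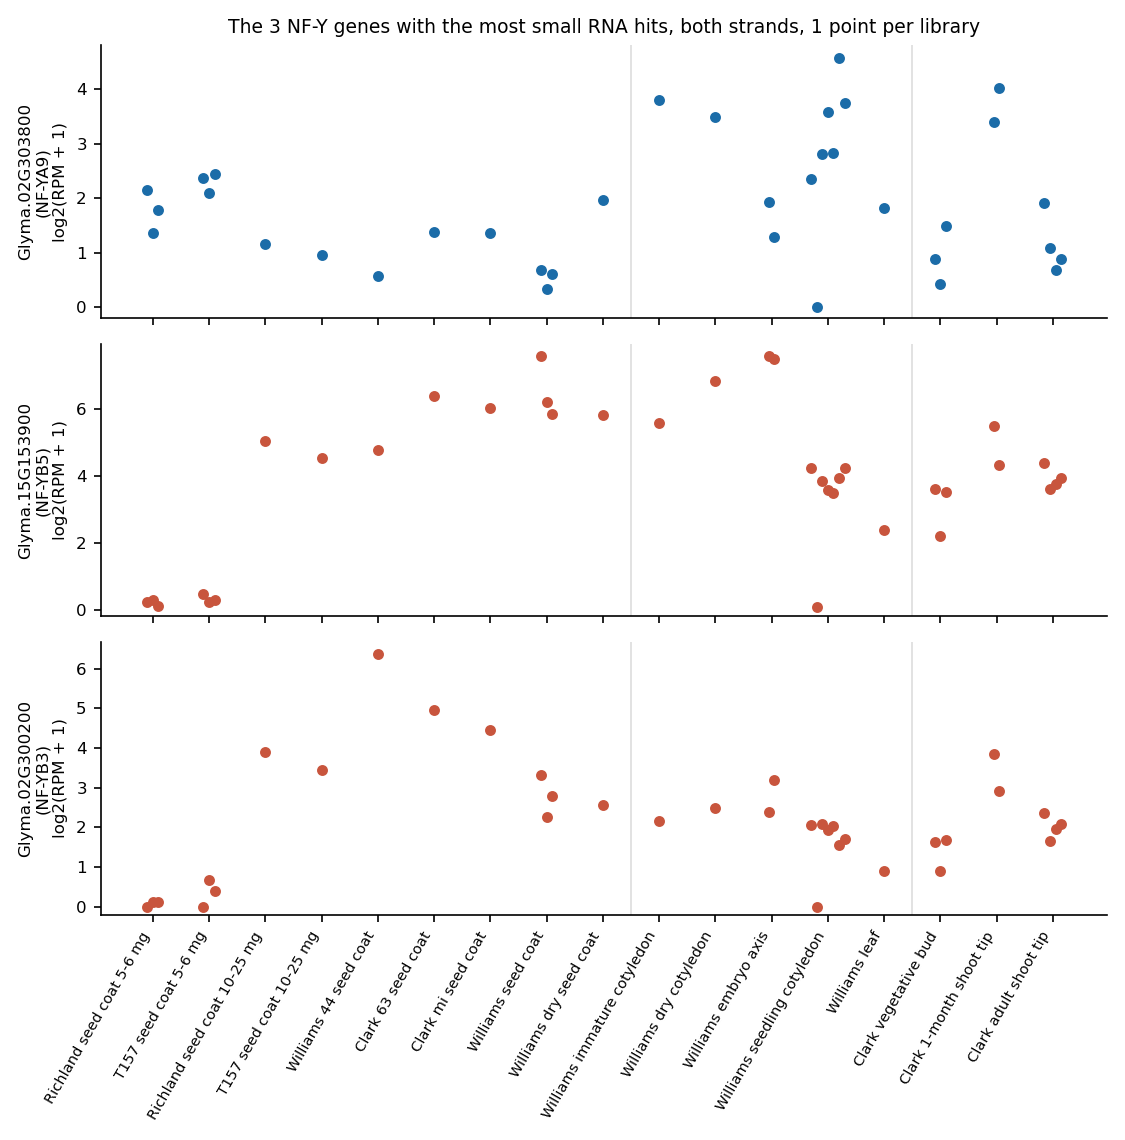
Level of the 3 NF-Y genes with the most hits, Glyma.02G303800, Glyma.15G153900 and Glyma.02G300200, both strands summed, on a log2(RPM + 1) axis, 1 point per library in the order of tissues from seed coats to shoots. Both subunit B genes are near 0 in the 5 to 6 mg coats and high in larger coats, while Glyma.02G303800 is highest in cotyledons (up to 22.7 RPM) and 1-month tips.

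The other subunit B genes were low, and several rested on sense hits. Glyma.15G118800 was at 0.777 to 1.91 RPM in the Williams coats, 2.81 RPM in the dry coat and 1.78 RPM in the dry cotyledon, against 0.0886 RPM or less in all shoot and seedling libraries. Glyma.09G014100 (NF-YB3), with 200 of 223 hits sense, was highest in the same dry coat (2.06 RPM). Glyma.20G000600 (NF-YB6) was at 0.470 to 2.68 RPM in 5 to 6 mg coats, and Glyma.05G183200 (NF-YB3) at 0.619 to 2.51 RPM there. Glyma.06G209000 (NF-YB13) was highest in the leaf, at 2.16 RPM.

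Subunit C sums had a narrower range of tissue means. They averaged 8.26 ± 2.27 RPM over the 6 coats of 5 to 6 mg (lowest 4.78, median 8.53, highest 11.8), 13.97 ± 6.44 RPM over the 2 of 10 to 25 mg and 20.7 ± 11.1 RPM over the 3 of 50 to 100 mg. The 3 Williams coats of 100 to 500 mg had 27.4, 3.71 and 11.5 RPM and overlapped all of these, whereas the 50 to 100 mg coats lay above the 5 to 6 mg coats. Axes held 8.51 ± 0.751 RPM (n = 2), the leaf 15.2 RPM, seedling cotyledons 3.55 ± 2.02 RPM (n = 7; 4.14 ± 1.40 RPM without stage 2), buds 4.68 ± 2.06 RPM (n = 3) and adult tips 4.33 ± 1.61 RPM (n = 4). Its antisense share was lowest in 5 to 6 mg coats (31.8 ± 13.02%, n = 6) and seedling cotyledons (34.9 ± 6.39%, 6 libraries with hits), where the sense-strand gene Glyma.12G069100 was at 2.51 to 7.96 RPM and 0 to 3.94 RPM.

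Of 13 subunit C genes with 100 or more hits, 6 had fewer than 10 hits in the 21 libraries without seed coat. In subunit A 0 of 17 did, and in subunit B 0 of 10. The limit of 10 was chosen after seeing the values, and the share over all genes is not given here. Some of the 6 also share counts, so the number is not read as a trait of subunit C. Glyma.08G148200 (NF-YC9, in Arabidopsis a partner of CONSTANS in flowering) was at 9.02 RPM in Clark 63, 5.43 RPM in the Williams coat of 100 to 200 mg and 4.98 RPM in Richland at 10 to 25 mg, and at 0.0972 RPM or less in all libraries without seed coat. Glyma.13G207600 (NF-YC9) was highest in the same first 2 libraries, at 5.24 and 5.12 RPM. Its neighbours by gene number, Glyma.13G207500 (NF-YC1) and Glyma.13G207700 (NF-YC2), were highest there too, at 2.98 and 2.36 RPM and at 2.64 and 1.96 RPM. The other 2 were Glyma.12G217200 (NF-YC4) and Glyma.13G284000 (NF-YC1), which share antisense hits, with 4 and 0 hits outside seed coats and 1.97 and 1.93 RPM in Clark 63. Glyma.10G155900 (NF-YC9) was instead highest in the leaf (5.14 RPM), and Glyma.14G038800 (NF-YC11) in the glabrous 1-month tip (2.77 RPM).

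Richland (I) and T157 (i) seed coats of 5 to 6 mg showed no NF-Y gene past the threshold. With edgeR's quasi-likelihood test, 0 of 19 tested NF-Y genes had an adjusted p under 0.05 and 0 had an unadjusted p under 0.05, DESeq2 also called 0, and 1.12% of all tested genes were called (0.65% higher and 0.474% lower in Richland). Subunit A sums averaged 27.0 ± 12.2 RPM in Richland and 41.4 ± 7.19 RPM in T157 (SD, n = 3 each), and the groups overlapped. All 13 tested subunit A genes had log2 fold changes of -0.43 to -0.27, with a median of -0.33 against -0.0057 over all genes, but they share much of their counts and the lowest adjusted p was 0.982 by edgeR. The 4 tested genes of subunit B lay between -0.09 and 0.44 and the 2 of subunit C at -0.47 and -0.32. Summed green tissue marker hits were 593 to 698 RPM in Richland and 669 to 710 RPM in T157, and their part in the result was not tested.

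Williams seed coats of 100 to 500 mg had fewer small RNAs than seedling cotyledons on the leading subunit A gene, Glyma.02G303800, relative to all genes, and more on the NF-YC1 pair. By edgeR's quasi-likelihood test, 12 of 15 tested NF-Y genes passed an adjusted p of 0.05, 3 higher and 9 lower in seed coats, against 47.4% of all tested genes (24.5% higher and 23% lower). Of the 15 genes, 6 had 5 or fewer hits in 1 of the groups and so passed the filter on low counts only through the group where they were high, which fixes their direction. They are Glyma.09G068400, Glyma.13G107900, Glyma.15G173300, Glyma.17G051400, Glyma.15G118800 and Glyma.18G007100, and nothing is read from the counts of calls over the genes that passed. The 4 of subunit A among them had nearly the same cotyledon counts, 67 to 69 hits each, so they are not separate results.

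Glyma.02G303800 led subunit A, with 0.603, 0.259 and 0.5259 RPM in the 3 coats, against a lowest, median and highest of 0, 6.07 and 22.7 RPM in the 7 cotyledons. The value of 0 is the stage 2 library, and the other 6 lie above every coat. The log2 fold change was -5.60 ± 1.09 (standard error, edgeR adjusted p = 0.000282). Glyma.15G173300 and Glyma.17G051400, identical in these libraries, had 0 hits in all 3 coats and 67 in the cotyledons. Their summed level was at least 9.59-fold lower in the coats (floor of 3 hits over the coats). Glyma.13G107900 (NF-YA3) had 3 hits in the coats and 67 in the cotyledons, and the cotyledon level was 9.59 times that of the coats (95% exact interval for counting error 3.14 to 47.7). Glyma.09G068400 had 5 and 69 hits in coats and cotyledons. For it and for the genes with 67 cotyledon hits the filter fixed the direction, so no p-value is given here. Glyma.02G195000 did not pass, at 0.448 to 0.754 RPM in coats and 0 to 0.553 RPM in cotyledons (-0.77 ± 0.59, edgeR adjusted p = 0.285).

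In subunit B, Glyma.15G118800 was at 1.21, 0.777 and 1.91 RPM in the coats and 0 to 0.0349 RPM (2 hits in all) in the cotyledons. The ratio of summed levels was 153 (95% exact interval for counting error 41.4 to 1273), in a direction that the filter fixed. Glyma.07G268100 fell (log2 fold change -2.40 ± 0.85, edgeR adjusted p = 0.0227). Glyma.18G077500 fell too (-1.64 ± 0.61, edgeR adjusted p = 0.0300), although its mean level was 0.673 ± 0.4656 RPM in coats and 0.683 ± 0.354 RPM in cotyledons. The abundant Glyma.15G153900 was at 56.4 to 189 RPM in coats and 0.0501 to 17.8 RPM in cotyledons without overlap, and its log2 fold change of 1.64 ± 0.83 had an edgeR adjusted p of 0.104. Glyma.02G300200 likewise had no overlap in RPM (3.80 to 8.94 in coats, 0 to 3.22 in cotyledons), but a log2 fold change of -0.15 ± 0.61 once scaled to gene hits (edgeR adjusted p = 0.860).

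In subunit C the NF-YC1 pair rose: Glyma.04G196200 was at 4.02, 1.47 and 3.49 RPM in coats and 0 to 0.414 RPM in cotyledons, and its log2 fold change was 2.18 ± 0.52 (edgeR adjusted p = 0.00170). Glyma.06G169600, which shares its antisense counts, gave 2.10 ± 0.53. Glyma.18G007100 (NF-YC13), whose counts on both strands match those of other genes, was at 0, 0 and 0.0779 RPM in coats and 0 to 0.757 RPM in cotyledons. The filter fixed its direction. Glyma.12G069100 fell (-2.71 ± 0.86, edgeR adjusted p = 0.0121), but the coats ranged from 0.0779 to 2.46 RPM and overlapped the cotyledons.

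**Figure D3:**
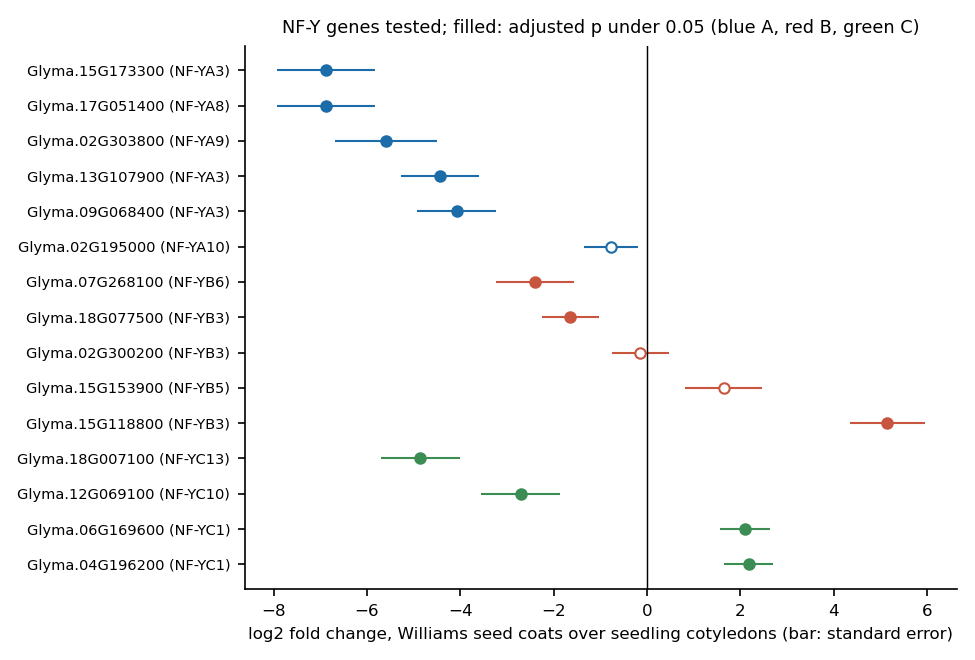
Log2 fold change of the 15 tested NF-Y genes, Williams seed coats (3) over seedling cotyledons (7), with bars of 1 standard error; filled points passed an adjusted p of 0.05 in edgeR, and blue, red and green mark subunits A, B and C. All 6 subunit A genes lie left of 0, from -6.87 to -0.77, while subunits B and C lie on both sides. The low-count filter fixed this direction for all subunit A genes but Glyma.02G303800 and Glyma.02G195000. The genes it fixed had nearly the same cotyledon counts, so the shared side is not read as a trait of subunit A. Glyma.02G195000 was not called and turns to 0.77 with library reads as scaling.

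The scaling mattered here. The test scales libraries by gene hits with TMM factors, and coats had more gene hits per read than cotyledons. With library reads as the only scaling, an alternative chosen after seeing the data, the median of all genes moved to 1.57. Of the 15 genes 8 were then called, 4 higher and 4 lower, against 41.7% of all genes. Glyma.07G268100 (adjusted p = 0.4932), Glyma.12G069100 (0.517) and Glyma.18G077500 (0.989) lost their call in edgeR, and Glyma.15G153900 gained it (log2 fold change 3.13, edgeR adjusted p = 0.0331). Glyma.09G068400 and Glyma.13G107900 lost theirs too, but the filter had fixed their direction. With nearly the same cotyledon counts, they are not separate outcomes. Glyma.02G195000, not called, turned to 0.77. Gene hits without TMM factors gave 10 calls, 4 higher and 6 lower, against 54.5% of all genes, with Glyma.15G153900 again called (2.47, edgeR adjusted p = 0.0146). Glyma.02G303800 and the NF-YC1 pair kept their direction and call in both. So did Glyma.15G173300, Glyma.17G051400, Glyma.18G007100 and Glyma.15G118800, but the filter had fixed their direction.

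Single libraries mattered for the lower genes. Without the stage 2 cotyledon 13 of 15 genes were called, now with Glyma.15G153900 (log2 fold change 1.56 ± 0.33, edgeR adjusted p = 0.00182). Leaving out the cotyledon of stage 1, 5 or 7 left 11 genes to test, of which 8 were called, since 4 subunit A genes fell under the filter. Shares of all genes are not given for these fits, so their counts are not read further. Glyma.18G077500 lost its call without any of the 3 coats, Glyma.07G268100 without coat 1 or 2, and Glyma.12G069100 without coat 2 or 3. Summed green tissue marker hits were 459 to 1505 RPM in coats and 2.30 to 1732 RPM in cotyledons, with 48 and 42 of the marker genes without a hit, and their part in the result was not tested.

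Over the 7 cotyledon stages no NF-Y gene followed a linear trend by edgeR. Of 12 tested genes 0 passed, 1 had an unadjusted p under 0.05, and 3.51% of all genes passed (2.9% rising and 0.612% falling). The gene at an unadjusted p under 0.05 was Glyma.07G268100, at 0.378, 0, 0.531, 2.34, 5.27, 2.02 and 2.53 RPM over stages 1 to 7, with a slope of 0.55 ± 0.23 log2 per stage (edgeR adjusted p = 0.218). DESeq2 called 3 genes, all rising, against 10.4% of all genes rising by that tool: Glyma.07G268100 (0.57 per stage, adjusted p = 0.0102), Glyma.12G069100 (0.34, adjusted p = 0.00634) and Glyma.02G303800 (0.39, adjusted p = 0.0494). DESeq2 was not run without stage 2. Without stage 2 edgeR called 0 of 14 NF-Y genes and 0 of 14406 genes in all, with 2 and 2981 at an unadjusted p under 0.05.

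Clark shoots showed no NF-Y gene past the threshold in 3 comparisons that share 1 model of 9 libraries. Between vegetative buds (3) and adult shoot tips (4), 0 of 9 tested genes passed by edgeR or by DESeq2, 0 had an unadjusted p under 0.05, and 2.5% of all genes passed (2.23% higher and 0.271% lower in buds). Glyma.15G153900 was at 11.2, 3.61 and 10.5 RPM in buds and 19.9, 11.2, 12.4 and 14.5 RPM in adult tips, with no overlap by less than 0.1 RPM (log2 fold change -0.46 ± 0.31, edgeR adjusted p = 0.597). The NF-YC1 pair gave 0.80 ± 0.48 each (edgeR adjusted p = 0.524 and 0.534).

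Five-foliate against standard plants gave 0 of 9 NF-Y genes by edgeR and DESeq2, with 0 at an unadjusted p under 0.05, and 0% of all genes by edgeR, of which 842 had an unadjusted p under 0.05 and DESeq2 called 3. Subunit C sums were 2.32 to 3.44 RPM in five-foliate and 3.65 to 6.75 RPM in standard libraries, without overlap, but Glyma.04G196200 had a log2 fold change of -0.62 ± 0.54 (edgeR adjusted p = 0.685). These ranges rest on few libraries. The highest value is the first standard adult tip, which stood apart from the other adult tips (3.44 to 3.65 RPM). Glabrous against standard plants gave 0 of 9 in both tools, 0 at an unadjusted p under 0.05, and 0% of all genes by edgeR, of which 2405 had an unadjusted p under 0.05 and DESeq2 called 16. The lowest p was that of Glyma.20G198500 (1.80 ± 0.85, edgeR adjusted p = 0.292), whose sense hits match those of many other genes. Shoot tips of 1-month plants, without a standard library, held more subunit A and B hits than adult tips, but entered the model only as a tissue of their own.

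Glyma.12G069100 of subunit C had more small RNAs in the 14 immature seed coats than in the 9 buds and shoot tips, with overlap. Glyma.08G148200 and Glyma.13G207600 had hits in the coats and 0 in the shoots. By edgeR 3 of 11 tested NF-Y genes rose in seed coats and 0 fell, against 23.2% of all genes (15.3% higher and 7.96% lower). The 2 NF-YC9 genes among them passed the filter on low counts only through the seed coats, which fixes their direction. The count is therefore not read further, and no p-value is given here for these genes. Glyma.08G148200 ranged from 0.173 to 9.02 RPM in seed coats (median 1.05) and had 0 hits in all 9 shoot libraries, 623 hits against 0. Its summed level was at least 113.1-fold higher (floor of 3 hits over the shoots). Glyma.13G207600 ranged from 0.0863 to 5.24 RPM (median 0.906) and had 0 hits in the 9 shoots, 441 against 0. Its summed level was at least 80.1-fold higher, with the same floor. Glyma.12G069100 was at 0.0779 to 7.96 RPM in seed coats (median 2.56) and 0.0935 to 0.850 RPM in shoots (median 0.172), which overlapped. Its log2 fold change was 2.82 ± 0.67 (edgeR adjusted p = 0.00279).

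**Figure D4:**
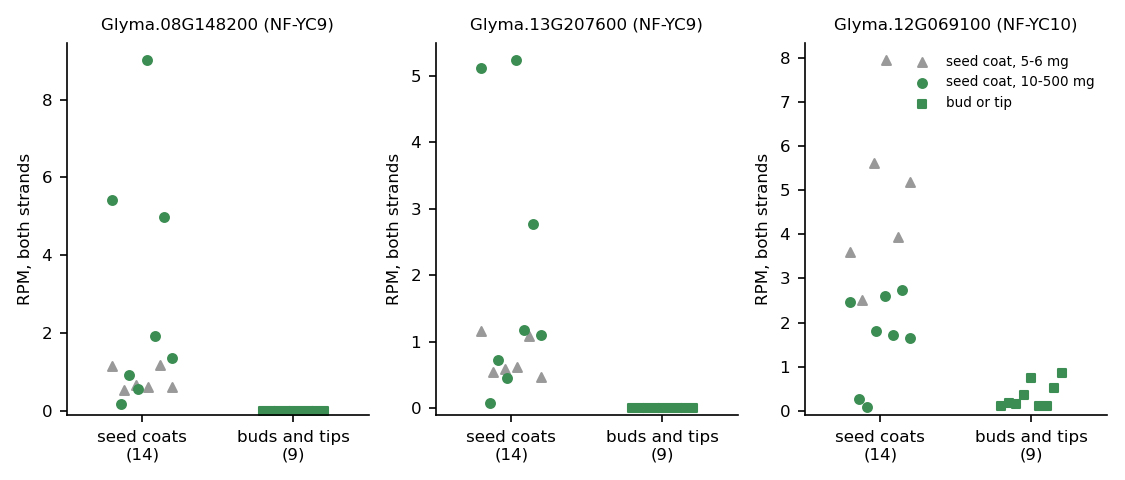
RPM on a linear axis of the 3 NF-Y genes called between 14 immature seed coats and 9 vegetative buds and shoot tips, 1 point per library; grey triangles are coats of 5 to 6 mg, green circles larger coats and green squares shoots. Both NF-YC9 genes are at 0 in all 9 shoots and above 0 in all 14 coats, with nearly the same antisense counts in 5 to 6 mg coats. Glyma.12G069100 is highest in 5 to 6 mg coats (up to 7.96 RPM).

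Cultivar and seed weight differ between the sides of this comparison. With Clark coats alone (Clark 63 and the mi isoline), 2 of 13 tested genes were called, against 9.6% of all genes. Both were the NF-YC9 genes without a hit in shoots, whose direction is fixed here too. Glyma.12G069100 had a log2 fold change of 1.37 (edgeR adjusted p = 0.1999). Without the 5 to 6 mg coats 3 of 7 tested genes were called, against 44% of all genes: Glyma.02G300200 (1.40, edgeR adjusted p = 0.0164) and Glyma.15G153900 (1.41, adjusted p = 0.0122) higher in seed coats, and Glyma.02G303800 (-2.78, adjusted p = 0.00271) lower. The NF-YC9 genes then fell under the filter on low counts, and Glyma.12G069100 gave 1.21 (edgeR adjusted p = 0.0785). Summed green tissue marker hits were 116.3 to 1505 RPM in seed coats and 443 to 2383 RPM in shoots, and their part in the result was not tested.

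Genes that work with NF-Y, listed by their descriptions, had lower pooled antisense shares than the 89.6% of NF-Y genes, but counted by gene they were close to all genes. The NF-Y share leans on Glyma.15G153900, without which subunit B had 67.4%. Of NF-Y genes with 100 or more hits, 26 of 40 were mostly antisense. The 53 CONSTANS and CCT domain genes, some of which encode partners of NF-Y in flowering, had an antisense share of 30.2%, 78 genes of the seed programme (among them B3 regulators) had 41.2%, and 58 other histone-fold genes had 58.5%. Of those with 100 or more hits, 17 of 34 partner genes, 25 of 53 seed programme genes and 14 of 27 other histone-fold genes were mostly antisense, against 45.8% of all genes. In the 45 SPL genes, a family known as target of miR156, the antisense share was 99.3% with a median of 157468 hits per kilobase, against 160 in subunit A. In Williams seed coats against cotyledons, 24.5% of all tested genes were higher and 23% lower by edgeR. Of partner genes there, 2 rose and 8 fell of 19 tested (median log2 fold change -1.14). Of seed programme genes 6 rose and 7 fell of 25, and of other histone-fold genes 2 rose and 0 fell of 12. Of SPL genes 2 rose and 4 fell of 36 (median -1.72), and of TCP and growth-regulating factor genes, families with members targeted by miR319 and miR396, 9 rose and 3 fell of 20. Green tissue genes were mostly lower in coats, with 4 up and 40 down of 70, and seed storage genes were split, with 19 up and 16 down of 70. In seed coats against shoots, 1 partner gene rose and 1 fell of 12, 3 seed programme genes rose and 1 fell of 20, and 30 SPL genes rose and 0 fell of 36 (median 3.31), by edgeR, beside 15.3% higher and 7.96% lower over all genes.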

How the data were processed

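The deposited tables of 36 soybean small RNA libraries were the starting point. Raw counts of read hits, total and unique, on the plus and minus strand of 86256 transcript models come from a strand table deposited by the authors, per the file headers; plus and minus are read here as sense and antisense. A second deposited table, on chalcone synthase, lists the reads of each library and RPM made by the authors, and counts divided by reads gave these RPM in all 36 libraries. Per the submitters' processing notes, Bowtie 1 did the alignment. The sources used here do not state mismatches, read sizes or when a hit counted as unique, and read lengths are pooled. Kits and sequencers, 2 of each, are not assigned to libraries, so they could not be fitted as batches.

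Total hits of both strands on the 52872 lowest splice forms were tested with edgeR 4.0.16 in R 4.3.3 (quasi-likelihood F test, TMM, filterByExpr with minimum count 10 and minimum total 15). Genes were called at an adjusted p under 0.05 (Benjamini-Hochberg, all tested genes), and DESeq2 1.42.0 was an alternative. The standard error is the size of the log2 fold change over the root of F. RPM, shares and figures were computed in Python 3.11.15 (pandas 2.3.3, numpy 2.4.6, scipy 1.17.1, matplotlib 3.10.9). The fits were tested on simulated counts. Other alternatives were other normalizations, no filter, single strands, unique hits and left-out libraries.

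The NF-Y genes, the lists of other genes, chosen by words in their descriptions, and the rule for naming were chosen with earlier results of these data known. Named were all subunit A genes with at least 100 hits, the 6 genes with most hits in B and in C, and all called genes; further genes were named after their values were seen. Intervals and floors (3 counts) cover counting error only.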

Additional observations from a re-analysis of the deposited data

Results flagged for a closer look

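In 53 groups of libraries, 12 values stood apart from the rest of their group by Dixon's test; chance gives about 1 in 20. Of these, 4 belong to the cotyledon of stage 2, whose library held few gene hits: subunit B and Glyma.15G153900 were at 0.0501 RPM each, and Glyma.02G300200 and Glyma.18G007100 at 0 RPM, below all other stages. Another 5 rest on 1 to 3 hits. These are Glyma.07G036200 at 0.0951 RPM in the first standard adult tip, Glyma.13G202300 at 0.0945 RPM in the glabrous adult tip, Glyma.12G236800 at 0.105 RPM in the stage 5 cotyledon, and Glyma.08G148200 and Glyma.13G207600 at 0.0313 RPM each in the stage 3 cotyledon.

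The other 3 lie in adult shoot tips. Subunit C summed to 6.75 RPM in the first standard tip, against 3.44 to 3.65 RPM in the other 3 tips, and Glyma.06G169600 was at 2.47 RPM there, against 1.13 to 1.31 RPM. Glyma.08G335900 was at 0.0935 RPM (1 hit) in the second standard tip, against 0.449 to 0.475 RPM.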

How the results depend on the processing

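Of 216 values of called NF-Y genes under alternatives, 198 stayed called, 18 did not and 0 changed sign. Many of these values belong to genes whose direction the low-count filter fixed, so the lack of sign changes is partly set in advance. In seed coats against cotyledons 12 genes were called, 28 (of 58) without the low-count filter, 5 (of 5) on sense hits alone, and 8 to 13 when single libraries were left out. In seed coats against shoots 3 became 28 (of 62) without the filter and 1 (of 3) on sense hits alone. Shares of all genes called under these alternatives are not given here, so the counts are not read as a result about NF-Y genes. The cotyledon trend gave 0 calls and 3 by DESeq2. Leaving out single libraries gave 0 calls in the trend, the shoot comparisons and Richland against T157. A replicate block in Richland against T157 also gave 0 calls; libraries with the same number did not vary together (correlations -0.2145, -0.1521 and -0.1622), so the numbers were not read as pairs. Embryo axes over seedling cotyledons gave a log2 ratio of mean RPM of 3.50 for subunit B, and 1.13 without Glyma.15G153900. For subunit A it was -0.22, and 1.29 without Glyma.02G303800, a change of sign within the spread between libraries. Without stage 2 these ratios were 3.28 and -0.44, and 1.04 for subunit C, against 1.26 with it. Scaling by library reads moved the median of all genes between seed coats and shoots to 0.71, against 0.14. In all comparisons depth limits the low genes: 3 hits are 0.0513 to 0.316 RPM, and 6 of 21 subunit A genes reached the test in seed coats against cotyledons. The causes of these shifts were not tested.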
